A study of Homo sapiens with 38 samples.

Results

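The MCM helicase and origin licensing genes are MCM2, MCM3, MCM4, MCM5, MCM6, MCM7, MCM10, CDC6, CDT1 and PCNA. They were taken from the expression table by gene symbol alone, and all 10 of 10 were present among the 25504 genes with a unique symbol. All 10 also had a mean of at least 1 FPKM (fragments scaled to transcript length in kilobases and to the size of the library), as did 10865 genes in total, called expressed here. The cells were RKO, a human colorectal cancer cell line. They were treated with DMSO alone, with NCD38, an inhibitor of the histone demethylase LSD1 (KDM1A), or with a conjugate of NCD38 and a pyrrole-imidazole polyamide, a small molecule that binds DNA in the minor groove. The conjugates are NCD38-β2P4 (labelled P4_NCD38), made to recognise 6 A/T bases in a row, and NCD38-β2PIPP (labelled PIPP_NCD38), made to recognise CG flanked by 2 A/T bases on each side. The inhibitor dose in the labels is 2 μM in 0.1% DMSO with the medium changed every 5 days, and RNA was collected on day 30 or day 4. For the 4-day treatment, the text of the study gives the dose in mM. There was 1 RNA library in each of the 8 conditions, 4 on each day, so no condition has a replicate. RKO is a single cell line, and neither polyamide was given alone in the RNA libraries.

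Before S phase, the origin recognition complex, CDC6 and CDT1 load the MCM2 to MCM7 hexamer onto DNA, which is called licensing. MCM10 then helps to turn the loaded helicase into an active one. PCNA is the ring-shaped sliding clamp that holds the DNA polymerases at the fork. Transcription of many of these genes is driven by E2F factors at the passage from G1 to S phase, so their RNA is widely used as a sign of proliferating cells.

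Promoters of 5 members are shown because they cover the different results between the days, with MCM2 and MCM7 lower on day 30, PCNA higher, and MCM6 and CDC6 not past the test. The sequences are from RefSeq on GRCh38.p14, from 250 bases before the start of the transcript to 30 bases after it. Capitals mark 2 kinds of letters, searched on both strands. The first is the E2F-type site written as TTTCCCGC, TTTCGCGC, TTTGCCGC or TTTGGCGC. The second is CCAAT, the core of the NF-Y site, read as ATTGG on the other strand, and matches may overlap each other.
MCM2 (chr3:127598161-127598440, + strand): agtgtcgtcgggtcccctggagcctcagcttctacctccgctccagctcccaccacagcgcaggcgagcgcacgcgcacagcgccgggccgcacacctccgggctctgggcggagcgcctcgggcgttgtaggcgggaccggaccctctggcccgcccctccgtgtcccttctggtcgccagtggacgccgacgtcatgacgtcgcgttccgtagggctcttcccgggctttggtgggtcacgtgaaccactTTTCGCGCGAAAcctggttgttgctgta
MCM7 (chr7:100101368-100101647, − strand): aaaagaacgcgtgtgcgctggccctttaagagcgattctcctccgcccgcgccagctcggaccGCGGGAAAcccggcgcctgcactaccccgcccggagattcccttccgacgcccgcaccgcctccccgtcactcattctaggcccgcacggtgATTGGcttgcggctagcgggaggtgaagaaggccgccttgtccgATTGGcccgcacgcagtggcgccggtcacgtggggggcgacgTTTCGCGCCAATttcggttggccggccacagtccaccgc
MCM6 (chr2:135876414-135876693, − strand): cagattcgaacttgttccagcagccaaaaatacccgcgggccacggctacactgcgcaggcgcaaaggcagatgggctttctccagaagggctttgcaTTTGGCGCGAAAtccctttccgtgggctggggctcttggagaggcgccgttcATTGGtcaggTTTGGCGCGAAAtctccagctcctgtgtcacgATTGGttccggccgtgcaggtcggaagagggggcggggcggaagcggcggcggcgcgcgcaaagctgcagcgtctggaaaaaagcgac
CDC6 (chr17:40287629-40287908, + strand): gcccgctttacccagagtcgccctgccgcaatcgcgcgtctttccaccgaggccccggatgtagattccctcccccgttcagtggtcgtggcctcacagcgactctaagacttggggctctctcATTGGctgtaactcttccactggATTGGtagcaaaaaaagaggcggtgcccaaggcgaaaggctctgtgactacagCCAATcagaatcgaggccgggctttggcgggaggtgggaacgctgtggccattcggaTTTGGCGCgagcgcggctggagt
PCNA (chr20:5119929-5120208, − strand): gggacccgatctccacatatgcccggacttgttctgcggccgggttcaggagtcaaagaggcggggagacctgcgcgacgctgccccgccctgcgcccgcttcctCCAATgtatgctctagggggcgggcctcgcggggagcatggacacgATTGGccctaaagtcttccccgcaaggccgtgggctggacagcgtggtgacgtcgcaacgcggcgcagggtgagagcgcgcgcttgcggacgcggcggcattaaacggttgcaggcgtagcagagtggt

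Of the 10 members, 8 had an entry in the promoter table, and MCM4 and MCM5 had none. The window searched in all ran from 250 bases before to 50 bases after the start. The E2F-type letters were in 6 of the 8 member promoters (MCM2, MCM3, MCM6, MCM7, CDC6 and CDT1) and in 3.3% of the 35116 promoters in the table. In MCM6 they formed 2 runs, the nearer one beginning 90 bases before the start, and in MCM2 1 run beginning 2 bases after it. CCAAT was also in 6 of the 8 (MCM3, MCM6, MCM7, MCM10, CDC6 and PCNA) and in 34.6% of all. A run of 6 A/T bases, the letters NCD38-β2P4 was made to recognise, was in 6 of the 8 and in 61.2% of all. CG flanked by 2 A/T bases on each side, the letters of NCD38-β2PIPP, was in 3 of the 8 (MCM3, MCM6 and MCM10) and in 15.9% of all. The promoters of MCM2 and MCM7 held neither of these A/T words. A match of letters is a description and says nothing of binding.

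On GRCh37, the build named in the submitters' notes, the genes lie on 10 different chromosomes and have 6 to 20 exons. MCM2 is at chr3:127317254-127341279, MCM3 at chr6:52128813-52149540, MCM4 at chr8:48873501-48890720, MCM5 at chr22:35796133-35821424, MCM6 at chr2:136597196-136634013 and MCM7 at chr7:99690351-99699020. MCM10 is at chr10:13203558-13253110, CDC6 at chr17:38444131-38460909, CDT1 at chr16:88870197-88875666 and PCNA at chr20:5095599-5100604. The share of G and C bases in the canonical transcript, the GC content, differed widely among the members. It was 43.2% in MCM6, 43.5% in PCNA, 43.7% in MCM10, 44.8% in CDC6 and 47.7% in MCM4. It was 51.7% in MCM3, 55.8% in MCM7, 56.3% in MCM5, 57.4% in MCM2 and 64.3% in CDT1. These values are given because the day difference, the treatment differences of day 4 and that of NCD38-β2P4 on day 30 followed GC content. On the opposite strand of MCM2 an lncRNA overlaps 2331 bases, and the miRNA genes MIR25, MIR93 and MIR106B lie inside MCM7 on the same strand, so reads of these may be shared.

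Depth, estimated from the FPKM value of single fragments, was 12400000 to 22600000 fragments per library. The epithelial markers KRT18 (76.2 to 121 FPKM) and KRT8 (6.58 to 19.0 FPKM) and the intestinal marker CDX2 (7.49 to 11.6 FPKM) were found in all libraries. EPCAM, another epithelial marker, was at 3.94 to 6.54 FPKM on day 30 but below 1 FPKM in all libraries of day 4 (0.0923 to 0.867), without overlap between the days. CDH1, KRT19 and VIL1 were below 1 FPKM in all. Of the 10 markers of fibroblasts, blood and endothelium, none reached 1 FPKM in any library, and the sums of these lists were at most 0.0307 FPKM. KDM1A, which encodes LSD1, was at 38.0 to 72.1 FPKM. In bulk RNA, fewer cells expressing a gene and less RNA per cell cannot be told apart.

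The levels per length covered a wide range, with MCM7 and PCNA highest and MCM10 lowest. On day 30, mean FPKM over the 4 libraries was 162 ± 27.1 for PCNA (SD, n = 4, 1 library of each treatment) and 74.1 ± 5.997 for MCM7. CDT1 (35.2 ± 3.49), MCM3 (31.4 ± 1.59) and MCM5 (29.2 ± 4.86) followed, and MCM4 (25.5 ± 5.86), MCM2 (25.0 ± 4.59), MCM6 (22.1 ± 3.24) and CDC6 (17.0 ± 3.99) were next. MCM10 was at 4.40 ± 0.792 FPKM. From CDT1 to CDC6 the ranges of neighbours in this order overlapped, while those of PCNA and MCM7, MCM7 and CDT1, and CDC6 and MCM10 did not. On day 4, MCM7 was first with 235 ± 23.9 FPKM. PCNA (86.1 ± 37.6), MCM2 (82.2 ± 8.91), MCM5 (79.5 ± 15.0) and CDT1 (77.7 ± 17.7) followed with overlapping ranges, all below MCM7. MCM3 (60.4 ± 13.6) and MCM4 (49.8 ± 18.0) were next, then MCM6 (19.8 ± 10.3), CDC6 (14.9 ± 6.35) and MCM10 (4.94 ± 3.16), and the ranges of neighbours again overlapped.

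**Figure D1:**
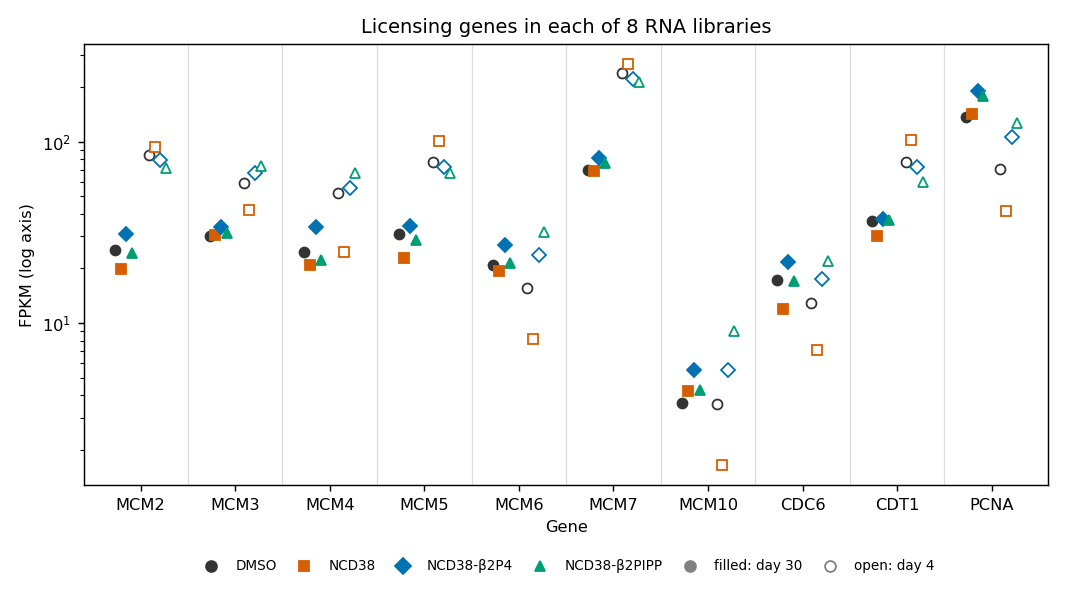
FPKM of the 10 genes in each RNA library on a log axis, with filled symbols for day 30, open symbols for day 4 and the shape for the treatment (1 library each). MCM2, MCM3, MCM5, MCM7 and CDT1 lie lower on day 30 in all 4 treatments with no overlap, PCNA lies higher, and the NCD38 library of day 4 is the lowest of its day for MCM3, MCM4, MCM6, MCM10, CDC6 and PCNA.

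The day of collection separated the helicase genes into groups. RNA of 5 of the 6 subunits of the helicase ring, and of the loading factor CDT1, was lower on day 30 than on day 4, PCNA was higher, and MCM6, MCM10 and CDC6 did not pass the test. With limma across all expressed genes, with the treatment as a block and Benjamini-Hochberg adjustment, 6 members fell, 1 rose and 3 did not pass an adjusted p of 0.05. Among all 10865 expressed genes, 31.7% fell and 30.2% rose in the same test, so a change between the days was common in these libraries. The median difference of the members was -0.88, beside -0.02 over all expressed genes, as a difference of log2(FPKM + 1). The 4 treatments served as the replicates of a day, so the p-values measure how alike the day difference was between treatments and not between cultures. Which sequencer read which library is not given, and day and any batch cannot be told apart.

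MCM7, a subunit of the helicase ring, was at 70.0 FPKM under DMSO, 68.5 under NCD38, 81.6 under NCD38-β2P4 and 76.1 under NCD38-β2PIPP at day 30. On day 4 it was at 238, 268, 222 and 214 FPKM in the same order. All 4 libraries of day 30 were far below the lowest of day 4. The ratio of the mean FPKM was 0.315, and the difference of log2(FPKM + 1) was -1.65 (SE 0.13, limma, adjusted p = 0.000541).

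MCM2, another subunit of the ring and a widely used proliferation antigen, gave 25.2, 19.7, 30.9 and 24.2 FPKM on day 30 in this order of treatments. On day 4 the values were 84.7, 93.1, 79.1 and 72.01 FPKM. The days did not overlap, and NCD38 was the lowest library of day 30 but the highest of day 4. The mean ratio was 0.304, and the log2 difference was -1.69 (SE 0.17, adjusted p = 0.000862).

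MCM5, which closes the ring next to MCM2 as the gate for DNA, gave 30.9, 22.8, 34.4 and 28.7 FPKM on day 30 in the same order of treatments. Day 4 gave 77.0, 101, 72.5 and 67.3 FPKM. As for MCM2, the NCD38 library was lowest on one day and highest on the other. The log2 difference was -1.41 (SE 0.20, adjusted p = 0.00225).

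MCM3, which contacts the loading machinery, stayed within 30.0 to 33.6 FPKM on day 30. On day 4 it was at 58.8 FPKM under DMSO, 42.0 under NCD38, 67.6 under NCD38-β2P4 and 73.2 under NCD38-β2PIPP. The spread between treatments was thus larger on day 4, and the days did not overlap. The log2 difference was -0.89 (SE 0.15, adjusted p = 0.00445).

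MCM4, part of the catalytic core with MCM6 and MCM7, gave 24.8, 21.0, 33.99 and 22.4 FPKM on day 30. The values of day 4 were 52.2 FPKM under DMSO, 24.6 under NCD38, 55.2 under NCD38-β2P4 and 67.1 under NCD38-β2PIPP. The NCD38 library of day 4 lay inside the range of day 30, so the days overlapped. The log2 difference was -0.87 (SE 0.23, adjusted p = 0.0202). Without the DMSO library of day 30 or of day 4 the adjusted p was 0.0886 and 0.0910, and without the NCD38-β2P4 library of day 30 or of day 4 it was 0.0610 and 0.0634. With treatment as a block, leaving out either library of a treatment takes that treatment out of the day difference. The estimate was thus the same for both days, -0.82 without a DMSO library and -0.94 without an NCD38-β2P4 library.

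CDT1, which brings the helicase to the origin and is degraded once S phase begins, gave 36.5, 30.0, 37.5 and 36.8 FPKM on day 30. Day 4 gave 76.7, 102, 72.03 and 59.9 FPKM. The NCD38 library was again lowest on day 30 and highest on day 4. The log2 difference was -1.10 (SE 0.19, adjusted p = 0.00469).

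MCM6, CDC6 and MCM10 did not pass the test, and their libraries overlapped between the days. MCM6 was at 19.3 to 26.8 FPKM on day 30 and at 15.6 under DMSO, 8.11 under NCD38, 23.7 under NCD38-β2P4 and 31.9 under NCD38-β2PIPP on day 4 (log2 difference 0.29, SE 0.28, adjusted p = 0.403). CDC6, the ATPase that loads the helicase together with CDT1, was at 12.0 to 21.7 FPKM on day 30. On day 4 it was at 12.9, 7.13, 17.4 and 22.0 FPKM in the order of treatments above (log2 difference 0.25, SE 0.20, adjusted p = 0.301). MCM10 was at 3.61 to 5.502 FPKM on day 30 and at 3.58, 1.64, 5.48 and 9.06 FPKM on day 4 (log2 difference 0.02, SE 0.32, adjusted p = 0.968). For all 3, the NCD38 library was the lowest of day 4 and the NCD38-β2PIPP library the highest.

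Without overlap between the 4 libraries of each day, 5 members were lower on day 30 (MCM2, MCM3, MCM5, MCM7 and CDT1) and 1 was higher (PCNA). Over all expressed genes, 33.1% were lower without overlap and 29.5% higher. The 2 DMSO libraries alone gave the same picture, with MCM7 at a log2 ratio of -1.75, MCM2 at -1.71, MCM5 at -1.29, CDT1 at -1.05 and MCM4 at -1.05 for day 30 against day 4. These 5 members were at least 2-fold lower in DMSO, as were 17.3% of expressed genes (41.4% were 2-fold higher or lower). These are 2 libraries without a replicate, 1 on each day, so day and any batch cannot be told apart in this pair either.

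The order of the members in the day comparison followed their GC content. Over the 10 genes, Spearman's rho of the day difference with GC content was -0.89, and over 9836 expressed genes with a known transcript it was -0.70. The 1968 genes with the lowest GC content (up to 41.4%) had a median log2 difference of 1.35 and the 1967 with the highest (from 59.0%) of -0.74. The points share the same 8 libraries, so these are descriptions without a test. When the trend of each library with GC content was subtracted, 8 members were lower on day 30 and 1 was higher. In that fit 28.9% of the genes fell and 29.6% rose.

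After the subtraction MCM2 was at -0.94 (SE 0.14, adjusted p = 0.000903), MCM7 at -0.92 (SE 0.13, adjusted p = 0.000690) and MCM4 at -0.80 (SE 0.13, adjusted p = 0.00112) on the log2 scale. MCM5 was at -0.71 (SE 0.17, adjusted p = 0.00786), MCM3 at -0.45 (SE 0.11, adjusted p = 0.0110) and CDT1 at -0.36 (SE 0.13, adjusted p = 0.0496). These 6 kept their direction with smaller differences, the smallest for CDT1, the member with the highest GC content. CDT1 was not called when the NCD38 library of day 4 was left out as well (-0.24, adjusted p = 0.0591). MCM6 and MCM10 turned to -0.43 (SE 0.11, adjusted p = 0.0123) and -0.55 (SE 0.14, adjusted p = 0.00983), lower on day 30. PCNA stayed higher, by 0.41 (SE 0.11, adjusted p = 0.0124), and CDC6 was at -0.09 (SE 0.12, adjusted p = 0.566). Thus the sign for MCM6 and MCM10 depended on whether the GC trend was subtracted, and its part in the day difference was not tested.

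**Figure D2:**
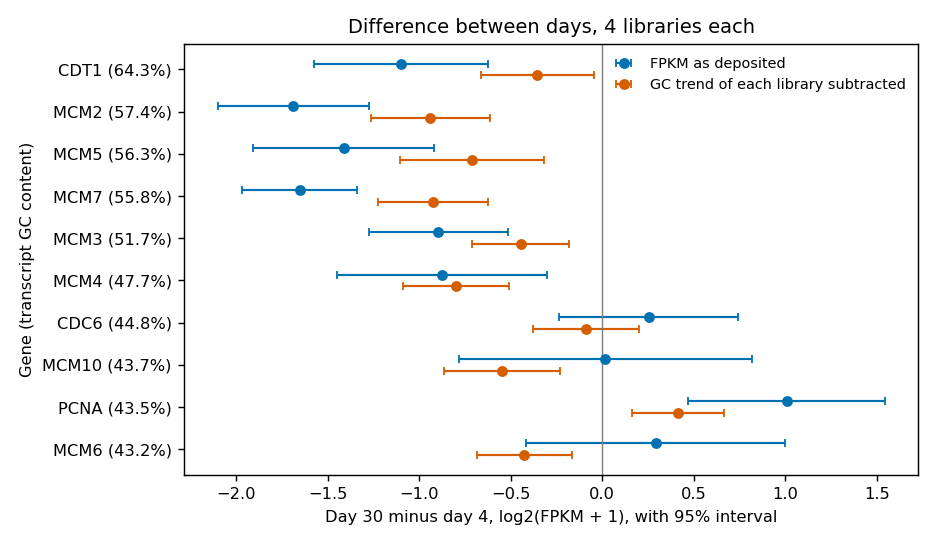
Difference between day 30 and day 4 for each gene, as log2(FPKM + 1), with 95% intervals from limma on FPKM as deposited (blue) and with the GC trend of each library subtracted (orange). Genes are ordered by transcript GC content, and MCM6 and MCM10 move from 0.29 and 0.02 to -0.43 and -0.55.

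PCNA was the single member that rose. It was at 136.5 FPKM under DMSO, 141 under NCD38, 190.5 under NCD38-β2P4 and 179.5 under NCD38-β2PIPP on day 30, and at 71.1, 41.2, 106 and 126 FPKM on day 4. The lowest library of day 30 was thus above the highest of day 4, and the log2 difference was 1.01 (SE 0.21, adjusted p = 0.00980). The table also holds PCNA-AS1, an entry for an antisense RNA of the PCNA locus. PCNA-AS1 was listed at essentially 0 in all 4 libraries of day 30, but at 60.5 FPKM under DMSO, 39.0 under NCD38, 102.5 under NCD38-β2P4 and 145 under NCD38-β2PIPP on day 4. It followed PCNA on day 4 at 0.851 to 1.15 times its FPKM. Of 18 expressed antisense entries, it was the 1 below 0.01 FPKM in all libraries of day 30, and none was below that value in all libraries of day 4.

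The libraries were made with a stranded kit according to the study, but the strand setting of the counting is not given in the sources used here. Where PCNA and PCNA-AS1 overlap, their reads cannot be told apart without it, and the overlap itself was not measured. When the fragments of PCNA-AS1 (384 bases) were added to PCNA (1276 bases), PCNA came to 89.3, 53.0, 137 and 170 FPKM on day 4. The ranges of the days then overlapped, the difference was 0.64 (SE 0.22) and the adjusted p was 0.0502, so PCNA was no longer called. This comparison was added after the values were seen.

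**Figure D3:**
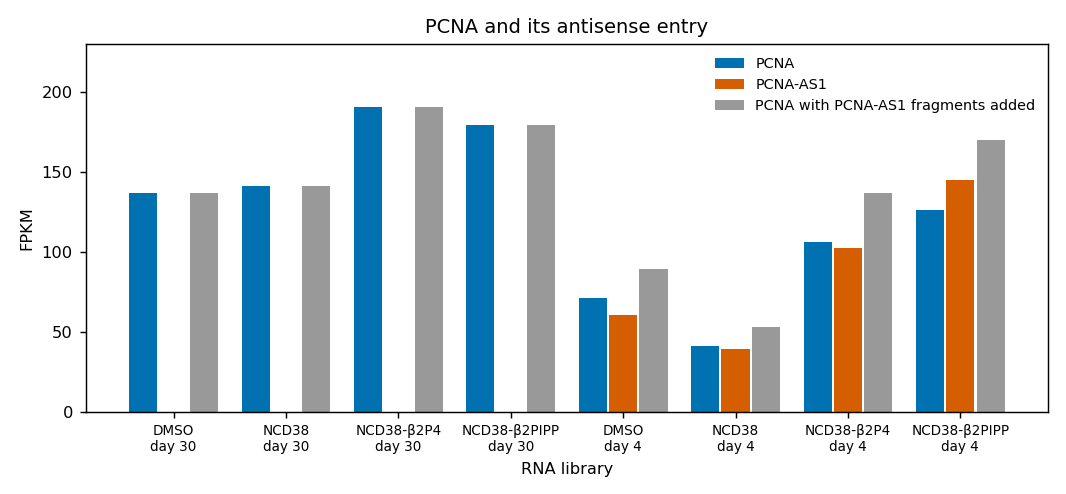
FPKM of PCNA (blue), of its antisense entry PCNA-AS1 (orange) and of PCNA with the fragments of PCNA-AS1 added (grey) in each RNA library, 1 library per bar. PCNA-AS1 is at 0 on this scale in the 4 libraries of day 30 and between 39.0 and 145 FPKM on day 4.

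The RNA balance among the 6 subunits also differed between the days. In each library the share of a subunit in the summed FPKM of MCM2 to MCM7 was computed, since the hexamer holds 1 copy of each protein. Protein was not measured, so these shares of RNA do not give the balance of the proteins. MCM7 had the largest share in all 8 libraries, 35.9% ± 1.91 on day 30 and 44.6% ± 3.97 on day 4 (SD, n = 4). MCM6 had the smallest, 10.6% ± 0.32 on day 30 and 3.8% ± 1.97 on day 4. On day 30 the shares were nearly the same in all treatments, and the highest subunit was 3.05 to 3.58 times the lowest. On day 4 this ratio was 6.72 with NCD38-β2PIPP, 9.35 with NCD38-β2P4, 15.3 with DMSO and 33.0 with NCD38. In the NCD38 library of day 4, MCM6 made up 1.5% and MCM4 4.6% of the sum, beside 49.9% for MCM7. The summed FPKM was 182 to 241 on day 30 and 519.7 to 537 on day 4, and hardly differed between treatments of day 4. The subunits with a low share on day 4, MCM6 and MCM4, are those with the lowest GC content of the 6.

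**Figure D4:**
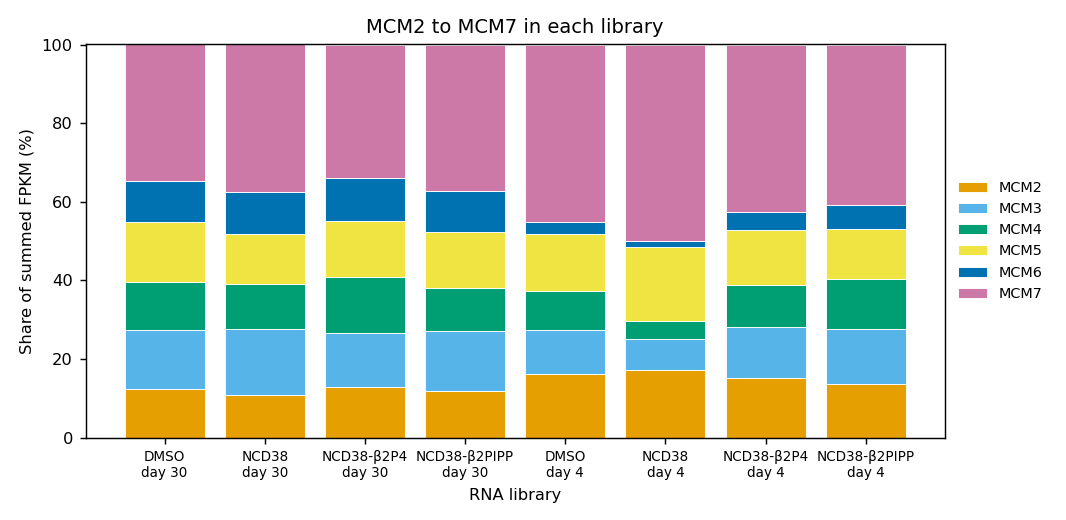
Share of each subunit in the summed FPKM of MCM2 to MCM7 in each RNA library, in percent. The MCM6 share is 10.4% to 11.1% on day 30 and 1.5% to 6.1% on day 4, with the lowest value in the NCD38 library of day 4.

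For the inhibitors, the question was whether NCD38 or a conjugate changed the licensing genes relative to DMSO. No member was called for any inhibitor. In the fit over both days, the mean of the 3 inhibitors differed from DMSO by -0.09 (MCM4) to 0.28 (MCM10) on the log2 scale, with an adjusted p of 0.9999 for all 10 members (limma). Among all expressed genes, 0.0276% were called in this test (3 genes), 0.0368% for NCD38 alone, 0.0184% for NCD38-β2P4 and 0.0184% for NCD38-β2PIPP. At an unadjusted p under 0.05, these tests gave 37, 145, 32 and 62 genes. The 95% intervals lay within 2-fold in both directions for 9 of the 10 members for the mean of the inhibitors (all but MCM10), and for 5 with NCD38 (MCM2, MCM3, MCM5, MCM7 and CDT1). The interval with NCD38 was -0.38 to 0.52 for MCM7, but -1.46 to 0.17 for MCM4 and -1.33 to 0.06 for CDC6. With the GC trend subtracted, it was -0.84 to -0.02 for MCM4 and -0.76 to 0.06 for CDC6, and the adjusted p was again 1 after rounding.

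Against DMSO of day 30, NCD38 left 7 members below and 3 above (MCM3 among them, which lay below after rescaling by the median ratio), and none differed 2-fold (1.66% of expressed genes did). CDC6 gave 12.0 FPKM against 17.3 (log2 ratio -0.50, counting half-width 0.12), MCM5 22.8 against 30.9 (-0.42, half-width 0.10) and MCM2 19.7 against 25.2 (-0.34, half-width 0.11). The half-width is a 95% interval for counting error only, from the estimated fragments. It was computed for FPKM without the 1 added, while the log2 ratios are of FPKM + 1. MKI67, a marker of cycling cells, went the other way in this pair, with 13.1 FPKM against 4.88, as did CDK1 with 24.4 against 14.9. The part of cell cycle distribution in these values was not tested.

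NCD38-β2P4 on day 30 gave all 10 members above DMSO, with log2 ratios from 0.04 (CDT1) to 0.50 (MCM10). PCNA was at 190.5 FPKM against 136.5 (0.48, half-width 0.07) and MCM4 at 33.99 against 24.8 (0.44, half-width 0.095). None was 2-fold different, as were 1.0% of expressed genes. The median ratio over expressed genes was 0.06 in this pair. Minus the median of expressed genes of the same GC content, the members were at 0.12 (CDT1) to 0.34 (MCM4 and MCM10). With rescaling by the median ratio, CDT1 lay slightly below DMSO and 9 members stayed above. NCD38-β2PIPP on day 30 gave log2 ratios between -0.14 (MCM4) and 0.39 (PCNA), with 6 members above and 4 below and 1.17% of expressed genes 2-fold different. For MCM2, MCM3, MCM6, CDC6 and CDT1 the NCD38-β2PIPP ratio of day 30 was within the counting error. MCM10 (0.19, half-width 0.21) is not counted among them, since the 1 added to FPKM shrinks the ratio of this low gene but not its half-width.

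On day 4 the members were split by their GC content in all 3 comparisons. With NCD38, all 5 members with a GC content under 50% lay below DMSO, as did MCM3, and MCM2, MCM5, MCM7 and CDT1 lay above. In the ratio of FPKM + 1, MCM4 was the 1 member 2-fold lower (24.6 against 52.2 FPKM, log2 ratio -1.06). So were 4.54% of expressed genes (5.41% were 2-fold different in either direction). In plain FPKM, MCM10 was more than 2-fold lower as well (1.64 against 3.585 FPKM). MCM6 was at -0.87, MCM10 at -0.80, CDC6 at -0.78 and PCNA at -0.77, while CDT1 was at 0.41 and MCM5 at 0.39.

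The conjugates gave the opposite order on day 4. With NCD38-β2PIPP, MCM10 was 2-fold higher in the ratio of FPKM + 1 (9.06 against 3.58 FPKM, log2 ratio 1.13). MCM6 was at 0.99, PCNA at 0.82, CDC6 at 0.72 and MCM4 at 0.36. In plain FPKM, MCM6 was just over 2-fold higher as well (31.9 against 15.6 FPKM). Of expressed genes, 10.3% were 2-fold higher in the ratio of FPKM + 1 (11.2% were 2-fold different in either direction). CDT1 was at -0.35, MCM2 at -0.23, MCM5 at -0.19 and MCM7 at -0.15. With NCD38-β2P4 the same 6 members were above DMSO and the same 4 below (MCM4 also lay below after rescaling by the median ratio), with smaller ratios from -0.10 (MCM7) to 0.57 (MCM6 and PCNA), and none was 2-fold different, as were 1.91% of expressed genes. Spearman's rho of these ratios with GC content over the members was 0.81 for NCD38, -0.90 for NCD38-β2P4 and -0.96 for NCD38-β2PIPP, and over expressed genes 0.61, -0.55 and -0.71. On day 30 it was -0.48, -0.81 and -0.45 over the members, and -0.18, -0.53 and -0.03 over expressed genes, in the same order.

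The ratios of day 4 were also set against the median of expressed genes of the same GC content. For NCD38 on day 4, MCM4 was still at -0.56 and MCM5 at 0.37, while CDC6 (-0.17), MCM10 (-0.19) and PCNA (-0.16) lay near that median. For NCD38-β2PIPP on day 4, MCM10 was still at 0.52 and MCM6 at 0.33, and MCM7 was at -0.07. Rescaling by the median ratio moved the NCD38 library of day 4 up by 0.37 and the NCD38-β2PIPP library down by 0.28 (log2). With it, MCM4 with NCD38 was at -0.67 and MCM10 with NCD38-β2PIPP at 0.91. In the ratio of FPKM + 1, no member of any comparison was then 2-fold different. MKI67, a proliferation marker, moved with the low-GC members on day 4. It was at 7.27 FPKM under DMSO, 3.44 under NCD38, 10.9 under NCD38-β2P4 and 20.7 under NCD38-β2PIPP. TOP2A (1.27, 1.095, 1.635 and 4.04 FPKM) and CDK1 (1.22, 0.695, 1.80 and 4.18 FPKM) had the same order of treatments. CCNB1 was at 77.3, 61.2, 70.9 and 73.5 FPKM, below DMSO with each inhibitor. The part of proliferation in these ratios was not tested.

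**Figure D5:**
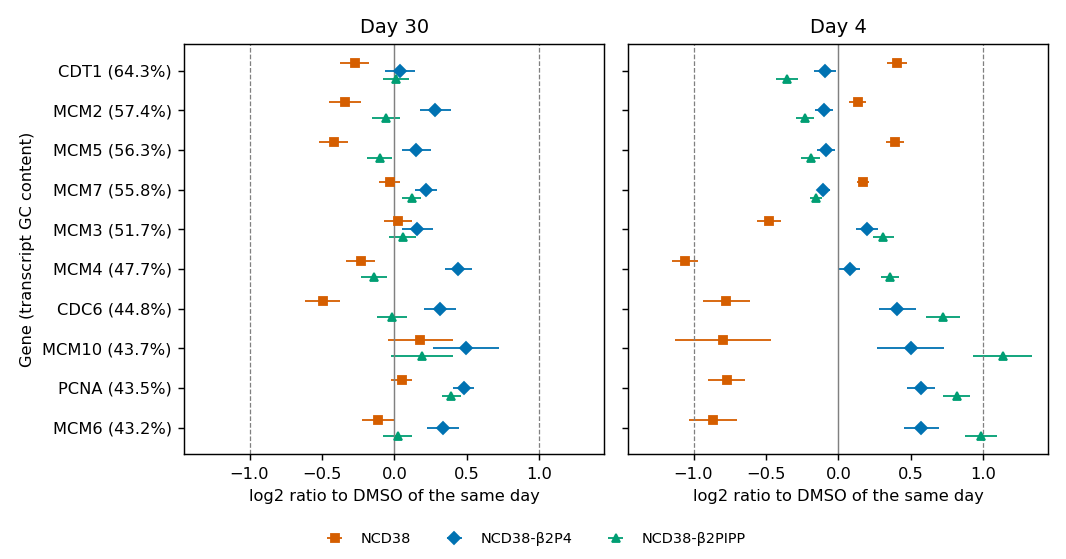
Log2 ratio of FPKM + 1 in each inhibitor library to the DMSO library of the same day, with dashed lines at 2-fold. Horizontal bars are the 95% counting half-width, computed for FPKM without the 1 added. On day 30 all ratios lie between -0.50 and 0.50, and on day 4 the genes with low GC content lie left of 0 with NCD38 and right of 0 with both conjugates.

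The compounds were compared in pairs at the same dose and over both days, as 3 pairs in the same limma fit. The conjugates carry a polyamide on NCD38, joined by a β-alanine linker. Against NCD38, NCD38-β2P4 was higher by 0.996 for CDC6 (95% interval 0.30 to 1.69), by 0.90 for MCM4 (0.09 to 1.72) and by 0.88 for PCNA (0.12 to 1.64). The intervals of the other members held 0, among them MCM6 (0.94, -0.05 to 1.94) and MCM10 (0.81, -0.33 to 1.94). For each member named here the adjusted p (limma) was 0.710 over all genes. It was 0.865 when the 32595 p-values of the 3 pairs were adjusted together. NCD38-β2PIPP was higher than NCD38 by 0.99 for CDC6 (0.30 to 1.68) and by 0.97 for PCNA (0.21 to 1.73), with an adjusted p of 0.530 for each (limma) and again 0.865 over the pairs. MCM6 (0.99, -0.01 to 1.99) and MCM10 (0.97, -0.16 to 2.10) differed about as much, with intervals that held 0. In these comparisons 0.00920% and 0.0184% of expressed genes were called. With the GC trend subtracted, the difference of NCD38-β2P4 from NCD38 was 0.52 for CDC6, 0.57 for MCM4 and 0.40 for PCNA, and that of NCD38-β2PIPP was 0.45 for CDC6 and 0.39 for PCNA. For MCM6 it was then 0.45 (0.08 to 0.82) with NCD38-β2P4 and 0.41 (0.04 to 0.77) with NCD38-β2PIPP, and neither was called. Without the NCD38 library of day 4, NCD38-β2P4 differed by 0.72 for CDC6, 0.47 for MCM4 and 0.39 for PCNA, and NCD38-β2PIPP by 0.71 for CDC6 and 0.47 for PCNA. The median over all expressed genes then moved from 0.18 to -0.02 for the first pair and from 0.23 to 0.02 for the second. Without the NCD38 library of day 30, PCNA was at 1.38 and 1.46 in these pairs, and without the NCD38-β2PIPP library of day 4 the second pair gave 0.59 for CDC6 and 0.63 for PCNA. For MCM7 the 95% interval was -0.46 to 0.43 for NCD38-β2P4 and -0.53 to 0.36 for NCD38-β2PIPP, both minus NCD38.

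Between the conjugates, which differ in the polyamide, all members were within -0.24 (MCM2) and 0.17 (MCM10) of each other, with an adjusted p of 1 for each after rounding (0.0276% of expressed genes called). The intervals were -0.52 to 0.37 for MCM7, -0.70 to 0.68 for CDC6 and -0.97 to 1.30 for MCM10, NCD38-β2PIPP minus NCD38-β2P4. A difference of up to about 1 on the log2 scale could thus not be seen for MCM10, while for MCM7 the interval was narrower than 2-fold in both directions. The effect of the 3 inhibitors was also compared between the days with an interaction term. No member was called, where 0.230% of expressed genes were, and the interval was -0.55 to 0.81 for MCM7 and -2.24 to 1.88 for CDC6.

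Of 68 other genes of DNA replication and the passage from G1 to S phase, 65 were expressed. Between the days 20 of them rose and 25 fell (30.2% and 31.7% of expressed genes), with a median log2 difference of 0.01. With the GC trend subtracted, 7 rose and 28 fell (29.6% and 28.9% of all genes in that fit), with a median of -0.29. Among the subunits of the origin recognition complex, which marks origins for the helicase, 4 rose, 1 fell and 1 was not called, with a median of 1.12. With the GC trend subtracted, 1 rose, 1 fell and 4 were not called, with a median of 0.08. ORC3 had the largest difference (2.76, SE 0.22, adjusted p = 0.000553), at 8.59 to 13.7 FPKM on day 30 and 0.123 to 1.42 on day 4, and ORC1, an ATPase subunit, was at -1.59 (SE 0.17, adjusted p = 0.00107).

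Of 7 genes that control licensing or unload the helicase, 2 rose and 1 fell, and 0 rose and 3 fell with the GC trend subtracted. For this list and those below, 30.2% of expressed genes rose and 31.7% fell. With the trend subtracted, 29.6% rose and 28.9% fell. Of 12 firing factors, 4 rose and 6 fell (0 and 4 with the trend subtracted), and MTBP, a partner of the firing factor Treslin, was at 1.70 (SE 0.19, adjusted p = 0.00121) but at 0.17 and not called with the GC trend subtracted. Of 27 fork proteins, 8 rose and 12 fell (3 and 13 with the trend subtracted). POLA2, a subunit of the polymerase α-primase complex, was at -1.62 (SE 0.15, adjusted p = 0.000711) and POLD2, a subunit of polymerase δ, at -1.60 (SE 0.21, adjusted p = 0.00188), whereas RFC1, the large subunit of the loader of PCNA, was at 1.88 (SE 0.30, adjusted p = 0.00368). The 12 other targets of the passage from G1 to S phase had 2 higher and 5 lower (3 and 6 with the trend subtracted). None of the 65 was called for any inhibitor, for any pair of compounds or for the interaction.

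The genes most like the members were found by the correlation of log2(FPKM + 1), centred within each day, with the mean of the 10 members over the 8 libraries. The 5 highest were GK (r = 0.993), BCL9 (0.993), UBE3B (0.993), TIMM9 (0.990) and SPRYD7 (0.990). UBE3B, an E3 ubiquitin ligase, was at 4.16, 3.90, 5.21 and 4.296 FPKM on day 30 and 5.21, 4.21, 5.99 and 6.72 on day 4, in the order DMSO, NCD38, NCD38-β2P4 and NCD38-β2PIPP. The order of treatments within each day was thus the same as for the mean of the members. With 8 libraries that share depth and GC trends, these correlations are a description only.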

How the data were processed

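RNA of RKO cells was measured in 8 libraries of the 38 samples of the series, and the 30 ChIP samples were not analysed here. The authors deposited 1 table of FPKM values made with Cufflinks, from reads aligned with TopHat according to the methods of the study, whereas the submitters' processing notes list HISAT2 2.2.1.0, BWA 0.5.9, bedtools 2.20.1 and hg19 without their roles. FPKM values are scaled to library size and transcript length, so they are not counts, and the fragments behind a value were estimated from the point where low values pile up, taken as 1 fragment.

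Of 25594 entries, 90 with a repeated symbol were left out. Genes with a mean of at least 1 FPKM over the 8 libraries were tested on log2(FPKM + 1) with limma 3.58.1 in R 4.3.3 (trend in the prior variance, day and treatment as terms, 3 residual degrees of freedom), with Benjamini-Hochberg adjustment over all 10865 genes and a threshold of 0.05. The interaction was fitted with day and inhibitor or DMSO as terms. Ratios within a day are of FPKM + 1 and have no test, since each condition is 1 library. Counting intervals were computed for FPKM without the 1 added and cover counting error only. The GC trend was the median of 50 bins of transcript GC content in each library, over the 9836 genes (90.5%) matched to GENCODE on GRCh37. Tables were handled with Python 3.11.15 and pandas 2.3.3. The limma step was run on simulated libraries with independent noise, equal for all genes, and no GC trend. The real libraries share such a trend, so that run says nothing of the error of the calls here. The named genes were the 10 members, the 3 called genes with the largest difference in each direction among the other replication genes, and the 5 genes most alike. The members and gene lists were chosen with earlier results of these data known. The alternatives were other pseudocounts, filters, scalings and variance priors, and leaving out each library.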

Additional observations from a re-analysis of the deposited data

How the results depend on the processing

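Of the 7 members called between the days, 6 to 7 were called when any 1 library was left out (5 to 6 lower, 1 higher), and 6 to 9 under the other settings. Leaving out either library of a treatment gave the same day difference, so these runs check each treatment and not each library. With the fragments of PCNA-AS1 added to PCNA, 0 members were higher. With the GC trend subtracted, MCM6 turned to -0.43 and MCM10 to -0.55, and without the NCD38 library of day 4 as well to -0.45 and -0.64, and the part of the trend was not tested. For the inhibitors, the pairs of compounds and the interaction, 0 members were called under every setting run, leave-one-out included. The members at least 2-fold different from DMSO of the same day, 2 over the 6 comparisons, came to 4 with a pseudocount of 0.1, 4 with 0.01, 0 after rescaling by the median ratio and 34 against DMSO of the other day, where the day difference enters by construction. Over all genes, the day comparison called 6722 genes (4567 to 7108 with 1 library left out, 4832 to 7827 otherwise). With at least 1 FPKM required in all 8 libraries, it called 1632 higher and 3200 lower, against 3277 and 3445. With 1 library left out, the calls over all genes were 0 to 24 for any inhibitor (3 with all libraries), 0 to 21 for NCD38 (4), 0 to 20 for NCD38-β2P4 (2), 0 to 27 for NCD38-β2PIPP (2) and 27 to 33 for the interaction (25), which ranged from 0 to 69 otherwise. The labels carry no replicate numbers. The treatment as a block paired the days, and without it 7 members were called as well. With 1 library per condition, the 95% interval of NCD38 against DMSO lay within 2-fold for 5 of the 10 members.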

Other observations

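The miRNA genes inside MCM7 had separate entries in the table. MIR25 was at 43.2 FPKM with NCD38 and at 0 in the other libraries of day 30, and on day 4 at 139 FPKM with DMSO, 184 with NCD38, 259 with NCD38-β2PIPP and 0 with NCD38-β2P4. MIR93 was listed at 0 in all 8 libraries, and MIR106B at 34.7 FPKM with NCD38-β2PIPP on day 30 and at 0 elsewhere. These entries are 80 to 84 bases long.

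The proliferation markers did not share 1 direction between the days. CDK1, the kinase of mitotic entry, was at 14.9 (DMSO), 24.4 (NCD38), 21.2 (NCD38-β2P4) and 21.8 FPKM (NCD38-β2PIPP) on day 30, and in this order at 1.22, 0.695, 1.80 and 4.18 FPKM on day 4. CCNB1, its cyclin, was at 23.7, 55.2, 36.9 and 33.7 FPKM on day 30 and at 77.3, 61.2, 70.9 and 73.5 FPKM on day 4. TOP2A was at 4.91 to 9.71 FPKM on day 30 and at 1.095 to 4.04 FPKM on day 4. MKI67 was at 4.88 to 13.1 FPKM on day 30 and at 3.44 to 20.7 FPKM on day 4. CDK1 and TOP2A were thus higher and CCNB1 lower on day 30 without overlap between the days, while MKI67 overlapped. Over all expressed genes, 29.5% were higher and 33.1% lower without overlap.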
